A study of Homo sapiens with 9 samples.

Results

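The ABCC transporters, also called the multidrug resistance proteins, were examined in VCaP cells by 7 genes, *ABCC1*, *ABCC2*, *ABCC3*, *ABCC4*, *ABCC5*, *ABCC6* and *ABCC10*, out of 19918 gene symbols in the count files. The members were chosen by name. *ABCC3* was included because its counts were already known to be higher with both siRNAs in these same libraries, so its values are given as a description and were not tested. VCaP is an established human prostate cancer cell line of epithelial type that carries the *TMPRSS2*-*ERG* fusion. RNA-seq had been performed on 3 groups of 3 libraries each. One group received si025 and another si033, and both of these siRNAs were aimed at exon 1 of the long non-coding RNA *IGF1R-AS1* and were labelled as knockdown of it. The control group, labelled WT, received a control siRNA in the same way. In every group 100 pmol of siRNA was delivered by reverse transfection with RNAiMAX, cells were taken after 72 h, and 1.3 µg of total RNA went into each stranded library. All 9 libraries came from 1 cell line at 1 time, no label says whether the replicates were separate cultures, and the *p* values therefore measure the spread between these libraries. The RNA aimed at was itself not analysed here, and the extent of knockdown is not known from these values.

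ABCC proteins are membrane transporters of the ATP-binding cassette superfamily that use ATP to pump organic anions out of the cell, many of them joined to glutathione, glucuronide or sulfate. *ABCC4* exports cyclic nucleotides, prostaglandins and conjugated steroids and is well known in prostate epithelium, and *ABCC5* exports cyclic nucleotides and folates. *ABCC1*, *ABCC2* and *ABCC3* handle glutathione and glucuronide conjugates, *ABCC2* on the apical and *ABCC3* on the basolateral side of polarised epithelia, *ABCC6* mediates release of ATP from liver cells, and *ABCC10* transports several anticancer drugs.

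Library totals ranged from 11649811 to 28492259 counts, and 12810 genes passed the filter on low counts and were tested with edgeR's quasi-likelihood test in 1 fit over all 9 libraries. Levels are CPM, the counts relative to the TMM-scaled total of each library, given as mean ± SD over 3 libraries, and a gene is referred to as called when its Benjamini-Hochberg adjusted *p* value over all tested genes was under 0.05. Differences are log2 fold changes with their standard error (SE), and a gene said to rise or fall by a value did so on the log2 scale. All 9 markers of VCaP prostate cells examined, which include *ERG* and *EPCAM*, reached a mean of at least 1 CPM. Their summed level was 4565 to 4662 CPM in control, 6659.5 to 7022 CPM in si025 and 4092 to 4291 CPM with si033. Of 13 markers of other cells, 5 reached a mean of 1 CPM, *CD3E*, *HBB* and *KRT5* had no count in any library, and the summed level of the list was 217 to 229.5 CPM in control, 182 to 187 CPM in si025 and 47.3 to 50.9 CPM with si033, nearly all of it albumin (*ALB*). The part of these shifts in the results below was not tested.

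Of the 7 members, 5 passed the filter, *ABCC1*, *ABCC3*, *ABCC4*, *ABCC5* and *ABCC10*, while *ABCC2* and *ABCC6* did not. Leaving *ABCC3* aside, 3 of the 4 remaining members were called with si025 against control, of which 1, *ABCC10*, was higher and 2, *ABCC4* and *ABCC1*, were lower. Over all tested genes the called share in that comparison was 61.7%, with 32.9% higher and 28.8% lower. With si033 against control 3 of 4 were also called, of which 1, *ABCC5*, was higher and 2, *ABCC4* and *ABCC1*, were lower, beside 54.8% of all tested genes, 26.9% higher and 27.8% lower. Between si025 and si033 directly, 1 of 4 was called, *ABCC10*, which was higher with si025, beside 60.9% of all tested genes, 31.2% higher and 29.7% lower. The comparisons of each siRNA with control share the same control libraries. Over all tested genes the median log2 fold change was 0.02 (si025) and 0.00 (si033), and the median absolute log2 fold change was 0.26 and 0.22. Since a majority of all genes was called in each comparison, the counts over 4 members are not read as a result about the members, and the values of each gene are given instead.

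**Figure D1:**
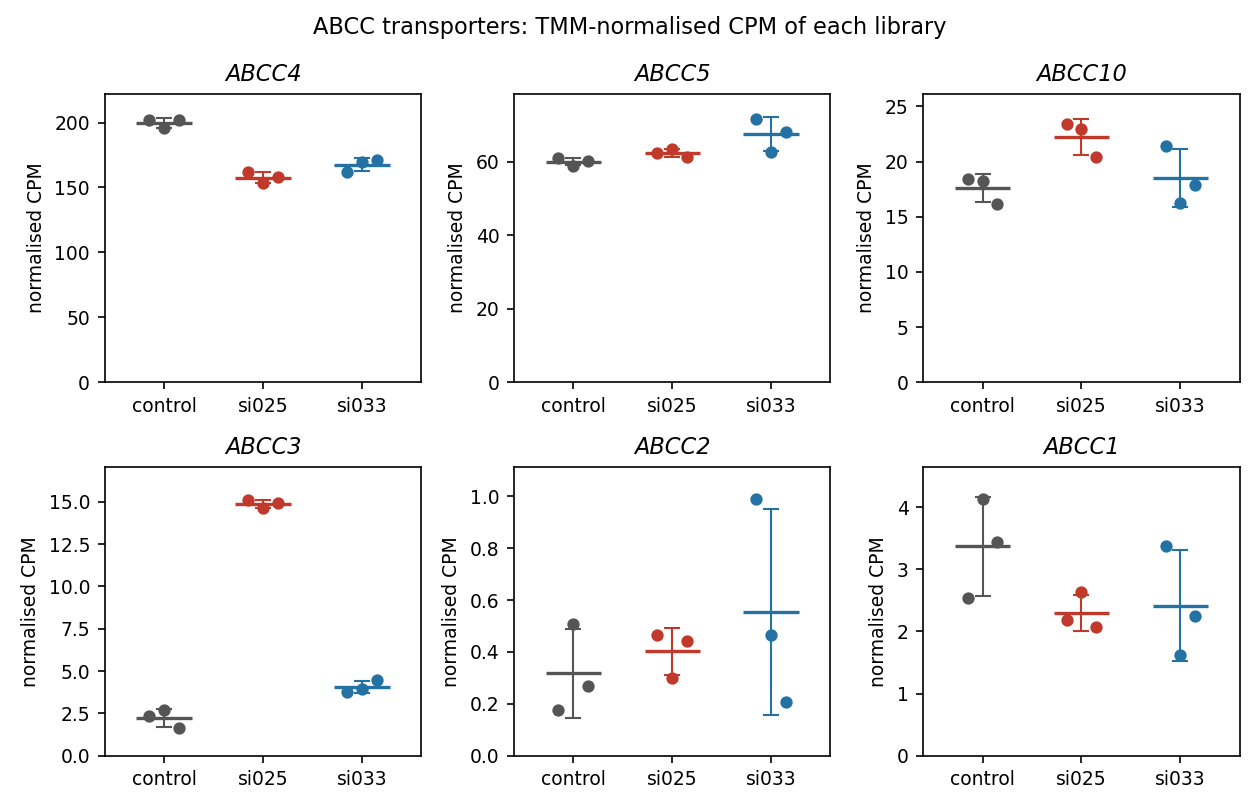
Normalised CPM of 6 members in each of the 9 libraries (points), with the mean (long bar) and SD (capped bar) of each group of 3, each panel on its own linear axis from 0. The *ABCC4* control libraries lie above all 6 siRNA libraries, the *ABCC3* si025 libraries lie between 14.6 and 15.1 CPM, and the control and siRNA points of *ABCC2* and *ABCC1* overlap.

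For 2 members the counts are not read as levels here. *ABCC1* (hg38, chr16:15949577-16143074, plus strand, 34 exon blocks) and *ABCC6* (chr16:16149565-16223616, minus strand, 33 exon blocks) are neighbours on chromosome 16. Of their exon sequence, cut into words of 31 bases, 97.2% for *ABCC1* and 96.2% for *ABCC6* was also found on an alternate contig of hg38, a second copy of the region that some versions of the assembly carry for population diversity. In addition, 28.5% of the words of *ABCC6*, a share that overlaps the former, occurred a second time on the primary chromosomes, where partial copies of this gene lie. For *ABCC2*, *ABCC3*, *ABCC4*, *ABCC5* and *ABCC10* the share on alternate contigs was between 0 and 1.35%.

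Read pairs that map to several places are not counted by the defaults of the counting program, and whether the index used for alignment held the alternate contigs is not given in the sources used here. In the deposited counts, 665 of 732 genes with at least 90% of their exon words on an alternate contig lay under 1 CPM (90.8%), against 36.0% of the 18477 genes with under 10%. At 5 CPM or more stood 18 of the 732 genes (2.46%) and 54.8% of the others. These sets were not matched for the kinds of genes they hold. On chromosome 16, 28 genes including *ABCC1* and *ABCC6* had at least 50% of their words on the same contig. They start between positions 14435700 and 18499924 and are not all adjacent. Several are numbered members of the *NPIPA* and *NOMO* families, and copies of these on the primary chromosomes were not searched for. The median of the 28 genes was 0.298 CPM, and 26 of them lay under 5 CPM. These included the widely expressed genes *PARN* at 0.947 CPM and *NDE1* at 0.217 CPM. The counts of *ABCC1* and *ABCC6* are therefore given below only as what the files hold. How the low values arose was not tested.

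**Figure D2:**
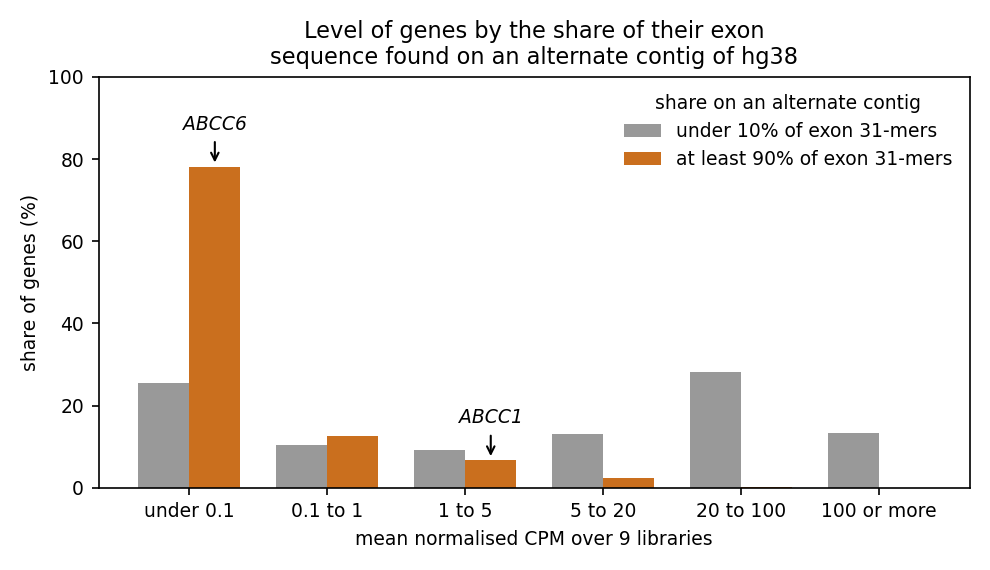
Share of genes (%) by mean normalised CPM over the 9 libraries, for genes with under 10% (grey) and at least 90% (orange) of their exon 31-base words on an alternate contig of hg38. Of the second set 78.1% lay under 0.1 CPM, the bin that holds *ABCC6*, and *ABCC1* lies in the bin from 1 to 5 CPM.

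Among the members *ABCC4* was the most abundant. Per kilobase of counted exon, after the CPM scaling (RPKM), the control level of *ABCC4* was 24.9 ± 0.456, followed by *ABCC5* at 5.59 ± 0.0897, *ABCC10* at 2.57 ± 0.189, *ABCC3* at 0.347 ± 0.0848 and *ABCC2* at 0.0435 ± 0.0235 (SD, n = 3). The libraries of neighbours in this order did not overlap. Of the 48 ABC family genes in the files, 43 had under 50% of their exon words on an alternate contig. Among these *ABCC4* ranked at place 3 in control, after *ABCE1* at 68.5 RPKM and *ABCB6*, a porphyrin transporter, at 34.7 RPKM. The family was taken by symbol and not all of its genes encode transporters, *ABCE1* being a ribosome recycling factor. In control *ABCC4* stood 4.46 ± 0.0332 times as high per length as *ABCC5*, and in si025 and si033 that ratio was 3.38 ± 0.131 and 3.33 ± 0.300.

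The order of the 5 members was the same with both siRNAs, but the distances differed. The level of *ABCC4* per length was 58.3 to 99.4 times that of *ABCC3* in the control libraries, 8.37 to 8.55 times in the si025 libraries and 30.8 to 34.3 times in the si033 libraries. With si025 *ABCC3* stood at 2.32 ± 0.0367 RPKM, near *ABCC10* at 3.25 ± 0.235 RPKM, and the ratio of *ABCC10* to *ABCC3* was 1.28 to 1.47 in those libraries, against 6.38 to 9.30 in control. Since *ABCC3* was chosen for its rise, these ratios describe that rise on a scale per length.

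**Figure D3:**
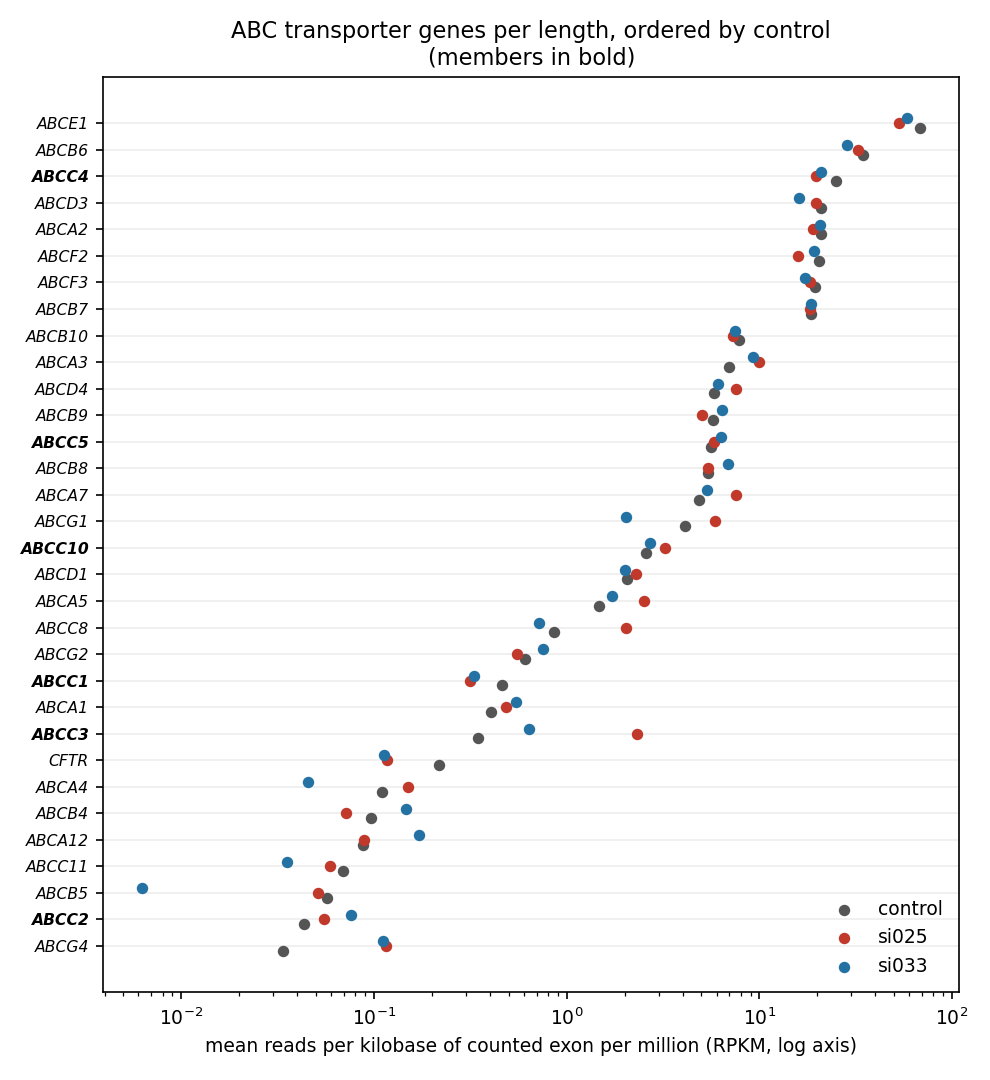
Mean level per length (RPKM, log axis) in control (grey), si025 (red) and si033 (blue) of the 32 ABC family genes that reached 0.05 RPKM in a group, ordered by control, with members in bold. *ABCC4* is at place 3 from the top, *ABCC5* and *ABCC10* lie mid-way, and *ABCC3* is the gene whose si025 point lies farthest from its control point among the members.

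RefSeq promoter entries (GRCh38.p14) were matched by symbol for 5 of the 7 members, *ABCC2*, *ABCC4*, *ABCC5*, *ABCC6* and *ABCC10*. Bases before the start are shown for the 3 members with readable counts that were called in at least 1 comparison. These members moved in different directions. Each stretch ends just before the outermost of the starts in RefSeq, the deposited annotation and GENCODE. For *ABCC10* this is the GENCODE start at 43427366, and the deposited start lies further on, at 43427538. *ABCC4* lies at chr13:95301551-95301701 (minus strand, 151 bases, 76.8% GC), *ABCC5* at chr3:184018011-184018134 (minus strand, 124 bases, 67.7% GC) and *ABCC10* at chr6:43427291-43427365 (plus strand, 75 bases, 49.3% GC). All are written 5′ to 3′ on the strand of the gene, and capitals mark the antioxidant response core TGACNNNGC in *ABCC4* and the GC box GGGCGG in *ABCC5*, both on the opposite strand.
ABCC4: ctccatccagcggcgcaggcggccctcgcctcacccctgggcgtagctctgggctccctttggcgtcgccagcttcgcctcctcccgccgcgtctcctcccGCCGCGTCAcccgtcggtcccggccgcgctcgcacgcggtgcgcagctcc
ABCC5: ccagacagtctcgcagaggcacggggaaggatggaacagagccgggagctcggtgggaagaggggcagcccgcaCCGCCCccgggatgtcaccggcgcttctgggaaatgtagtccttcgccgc
ABCC10: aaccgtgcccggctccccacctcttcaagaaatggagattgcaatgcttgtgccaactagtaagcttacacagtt

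In windows of 250 bases before each of 35116 RefSeq starts, searched on both strands, the antioxidant response core was found in 10.9%, the GC box in 42.6%, the E-box CACGTG in 6.34%, the CCAAT box in 32.0% and the TATA box TATAAA in 10.7%, and the median GC content was 58.0%. The window of *ABCC4* had 80.4% GC with 1 antioxidant response core, and that of *ABCC5* had 64.8% GC with 1 GC box and 1 TATA box. *ABCC10* has 2 starts in the table, of which the one nearer the end of the gene had 3 GC boxes and the other had 1 E-box, 1 antioxidant response core and 1 TATA box. The motifs of that other window lie outside the stretch printed above. *ABCC2* had 45.6% GC with 1 TATA box, and in the windows of *ABCC6* these 5 motifs were not found. These matches are letters in a window and are not evidence of binding.

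*ABCC4*, the exporter of cyclic nucleotides and prostaglandins, was lower with both siRNAs. The gene lies at chr13:95019829-95301550 on the minus strand and spans 282 kb with 36 exon blocks, and its exon length was 8011 bases. The raw counts of *ABCC4* were 2312, 2697 and 5225 in control, 2076, 3089 and 3573 with si025 and 1962, 2188 and 4965 with si033. After scaling, the control libraries held 201.8, 195.5 and 201.8 CPM, the si025 libraries 161.7, 153.3 and 158.0 CPM and the si033 libraries 161.7, 169.3 and 171.4 CPM. Each control library was above each siRNA library, and the siRNA groups touched at 161.7 CPM.

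The mean level of *ABCC4* was 199.7 ± 3.65 CPM in control, and si025 brought it to 157.6 ± 4.20 CPM and si033 to 167.4 ± 5.10 CPM (SD, n = 3). With si025 it fell by 0.34 on the log2 scale (SE 0.04, adjusted *p* = 3.99e-07, edgeR), with a 95% confidence interval from -0.43 to -0.25. With si033 it fell by 0.25 (SE 0.04, adjusted *p* = 3.41e-05, edgeR), with an interval from -0.34 to -0.16. The direct difference of si025 from si033 in *ABCC4* was -0.09 with an interval from -0.18 to 0.00 (adjusted *p* = 0.0799, edgeR), so the siRNAs were not shown to differ in this gene. Both decreases were somewhat larger than the median absolute change of all tested genes, and each library held at least 1962 counts of *ABCC4*.

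*ABCC5*, also an exporter of cyclic nucleotides, differed little between the groups. It lies at chr3:183919934-184018010 on the minus strand, with 35 exon blocks and 10721 bases of exon. The control libraries held 60.8, 58.9 and 60.1 CPM, the si025 libraries 62.5, 63.5 and 61.2 CPM and the si033 libraries 71.7, 62.7 and 68.2 CPM. All siRNA libraries were above all control libraries, and the groups of the siRNAs overlapped each other. With si033 *ABCC5* rose from 59.9 ± 0.962 CPM to 67.5 ± 4.55 CPM, a log2 fold change of 0.17 (SE 0.05, adjusted *p* = 0.00982, edgeR). With si025 the level was 62.4 ± 1.14 CPM and the log2 fold change 0.06, with an interval from -0.06 to 0.17 (adjusted *p* = 0.372). The direct difference of si025 from si033 was -0.12 (SE 0.05, adjusted *p* = 0.0663, edgeR). *ABCC4* and *ABCC5*, which share substrates, thus had opposite signs with si033.

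*ABCC10* was higher with si025 and was the member for which the direct test separated the siRNAs. The gene lies at chr6:43427538-43451994 on the plus strand, with 26 exon blocks and 6835 bases of exon. The control libraries held 18.4, 18.3 and 16.1 CPM, the si025 libraries 23.4, 22.9 and 20.4 CPM and the si033 libraries 21.4, 16.2 and 17.9 CPM. All si025 libraries were above all control libraries, whereas the si033 libraries overlapped both groups. *ABCC10* rose from 17.6 ± 1.29 CPM in control to 22.2 ± 1.61 CPM with si025, a log2 fold change of 0.35 (SE 0.09, adjusted *p* = 0.00160, edgeR). With si033 it stood at 18.5 ± 2.65 CPM, a log2 fold change of 0.08 with an interval from -0.11 to 0.27 (adjusted *p* = 0.470). The direct difference of si025 from si033 was 0.27 (SE 0.09, adjusted *p* = 0.0110, edgeR). This call was lost when si033 replicate 2 was left out (adjusted *p* = 0.0603) and when si033 replicate 3 was left out (adjusted *p* = 0.0661).

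In the deposited annotation the 3′ end of *ABCC10* overlaps *DLK2*, a gene on the opposite strand, by 1.64 kb. The GENCODE end of *ABCC10* lies at 43450427, before the deposited end at 43451994. *DLK2* stood at 0.652 CPM in control, 2.79 CPM with si025 and 0.547 CPM with si033, and it rose with si025 by 2.04 on the log2 scale (adjusted *p* = 2.84e-07, edgeR). Counting used the strand, which separates the genes, and the part of reads from the other strand in the counts of *ABCC10* was not tested.

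*ABCC3*, the basolateral exporter of glucuronide conjugates, was chosen for being higher with both siRNAs, and the following values describe that choice. The gene lies at chr17:50634843-50691704 on the plus strand, with 31 exon blocks and 6402 bases of exon. Its raw counts were 27, 37 and 42 in control, 194, 295 and 337 with si025 and 46, 51 and 129 with si033. The control libraries held 2.36, 2.68 and 1.62 CPM, the si025 libraries 15.1, 14.6 and 14.9 CPM and the si033 libraries 3.79, 3.95 and 4.45 CPM. The libraries of the 3 groups did not overlap, and the si025 libraries differed among themselves by less than those of the other groups. The fitted level was 7.06-fold that of control with si025, 1.97-fold with si033 and 3.58-fold higher with si025 than with si033, which are log2 differences of 2.82 (SE 0.14), 0.98 (SE 0.17) and 1.84 (SE 0.13). Without control replicate 3, the lowest control library, the log2 differences from control were 2.55 and 0.71.

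**Figure D4:**
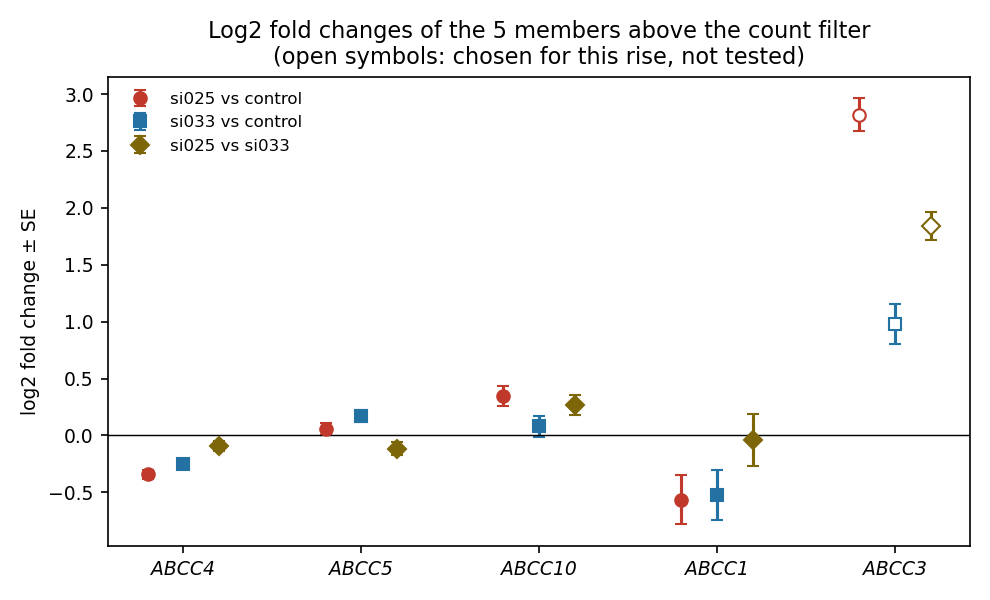
Log2 fold change ± SE (vertical axis) of the 5 members that passed the count filter, for si025 against control (red circles), si033 against control (blue squares) and si025 against si033 (brown diamonds), with *ABCC3* drawn open because it was chosen for its rise and not tested. *ABCC4* and *ABCC1* lie under 0 with both siRNAs, and *ABCC10* lies at 0.35 with si025 and 0.08 with si033.

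*ABCC2*, the apical exporter of glutathione and glucuronide conjugates, was near the limit of detection. It lies at chr10:99782598-99853741 on the plus strand, and its 3 libraries per group together held 16 counts in control, 22 with si025 and 24 with si033. The control libraries held 0.175, 0.507 and 0.270 CPM, the si025 libraries 0.467, 0.298 and 0.442 CPM and the si033 libraries 0.989, 0.464 and 0.207 CPM. The groups overlapped, and without the filter the log2 fold changes of *ABCC2* were 0.32 with si025 (adjusted *p* = 0.665, edgeR) and 0.57 with si033 (adjusted *p* = 0.439, edgeR). A difference in *ABCC2* was not detectable at this depth.

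*ABCC1*, the broad exporter of glutathione conjugates, held 29, 57 and 89 counts in control, 28, 53 and 47 with si025 and 41, 21 and 65 with si033. After scaling these were 2.53, 4.13 and 3.44 CPM, 2.18, 2.63 and 2.08 CPM, and 3.38, 1.62 and 2.24 CPM, so the groups overlapped. The log2 fold changes were -0.56 with si025 (SE 0.22, adjusted *p* = 0.0272, edgeR) and -0.52 with si033 (SE 0.22, adjusted *p* = 0.0463, edgeR). As 97.2% of the exon words of *ABCC1* also lie on an alternate contig, these counts are not read as a level of the transcript. The call with si025 was lost in 5 of 16 alternative settings and that with si033 in 9 of 16, including without control replicate 2 (adjusted *p* = 0.136 and 0.210) and without control replicate 3 (0.0801 and 0.125). Without *ABCC1*, 2 of 3 members were called with each siRNA against control and 1 of 3 between the siRNAs.

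*ABCC6* had 0 counts in the control libraries, 1 count with si025 and 1 count with si033. In control, 0 of 52516973 counts allows a level of up to 0.0571 CPM, taking 3 counts over the group as the limit, for counting error only. With 96.2% of its exon words on an alternate contig and 28.5% found again elsewhere on the primary chromosomes, this is not taken to bear on whether *ABCC6* is expressed.

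The members were next compared with the other ABC family genes. Of 41 such genes in the files, 23 were tested. Called rises and falls numbered 6 and 5 under si025 (median log2 fold change -0.08) and 6 and 7 under si033 (median -0.01). Over all tested genes 32.9% were called higher and 28.8% lower with si025, and 26.9% and 27.8% with si033. The counts were not tested against these shares. Among the other ABCC genes only *ABCC8*, a regulatory subunit of ATP-sensitive potassium channels, was tested besides *CFTR*, the chloride channel of this subfamily. *ABCC8* rose with si025 from 4.45 ± 0.857 to 10.5 ± 0.524 CPM, a log2 fold change of 1.22 (adjusted *p* = 1.34e-07, edgeR), and stood at 3.72 ± 0.829 CPM with si033 (log2 fold change -0.21, adjusted *p* = 0.310). *CFTR* fell with both siRNAs, from 1.61 CPM to 0.865 and 0.834 CPM, with log2 fold changes of -0.93 and -1.12 (adjusted *p* = 0.00441 and 0.00159). *ABCC9* and *ABCC12* had mean levels under 0.05 CPM in every group and *ABCC11* stood between 0.312 and 0.611 CPM.

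Outside the ABCC genes, the cholesterol exporter *ABCG1* separated the siRNAs. It rose with si025 from 44.7 ± 2.04 to 64.1 ± 4.31 CPM and fell with si033 to 22.1 ± 2.56 CPM, and the direct log2 difference was 1.55 (adjusted *p* = 9.21e-15, edgeR). *ABCA3*, a lipid transporter, rose with both siRNAs, with log2 fold changes of 0.51 and 0.42, and so did *ABCA5*, with 0.76 and 0.22. *ABCA7* rose with si025 by 0.65 and its value with si033 was 0.15 (adjusted *p* = 0.0568). *ABCA12* and *ABCA4*, both near 1 CPM, had log2 fold changes of -0.13 and 0.50 with si025, neither called, and of 0.79 and -1.08 with si033, both called. The drug exporters *ABCB1* and *ABCG2*, often considered beside the ABCC genes, were low. *ABCB1* lay between 0.0370 and 0.221 CPM in the groups and was not tested. *ABCG2* lay between 2.87 and 3.93 CPM and was not called against control with either siRNA. In the direct comparison *ABCG2* was lower with si025 than with si033 (log2 difference -0.49, adjusted *p* = 0.0209, edgeR). *ABCF1*, *TAP1* and *TAP2* lay between 0 and 0.111 CPM in the groups. Of their exon words 99.5% to 100% lie on an alternate contig, and their counts are not read as levels either.

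**Figure D5:**
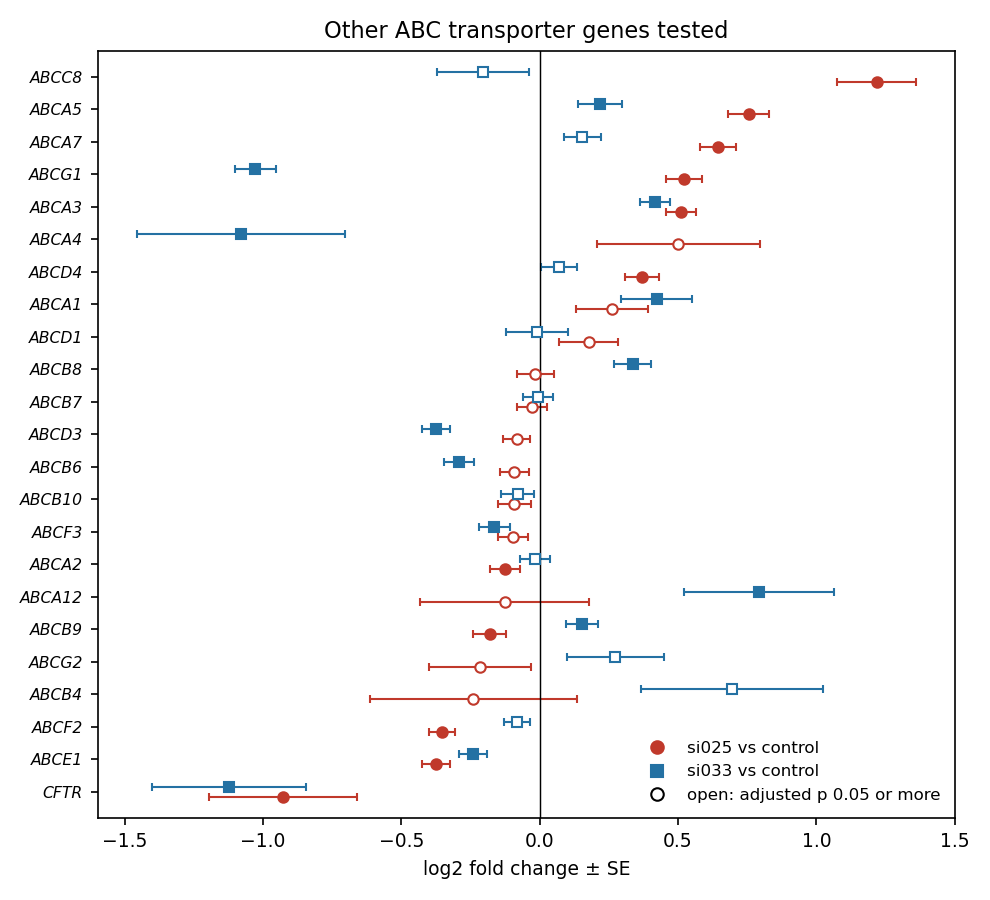
Log2 fold change ± SE (horizontal axis) of the 23 other ABC family genes tested, for si025 (red circles) and si033 (blue squares) against the same control libraries, with filled symbols for an adjusted *p* value under 0.05. *ABCG1* lies at 0.52 with si025 and -1.03 with si033, *ABCC8* is highest with si025 at 1.22, and *CFTR* lies at -0.93 and -1.12.

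Genes adjacent to *ABCC3* and *ABCC4* did not share one direction. *CACNA1G*, a calcium channel subunit on the same strand as *ABCC3* and 5.22 kb before its start, rose with both siRNAs, from 1.58 CPM to 4.66 and 3.98 CPM, with log2 fold changes of 1.52 (adjusted *p* = 1.26e-07, edgeR) and 1.27 (adjusted *p* = 4.18e-06, edgeR). *ANKRD40*, 1.49 kb beyond the other end of *ABCC3*, had log2 fold changes of 0.03 with si025 (adjusted *p* = 0.560) and -0.37 with si033 (adjusted *p* = 3.54e-07). The next genes on both sides, *SPATA20* and *LUC7L3*, had absolute log2 fold changes of at most 0.14. The nearest tested genes to *ABCC4*, *GPR180* and *DZIP1*, lie 385 and 277 kb away. *GPR180* had log2 fold changes of 0.38 with si025 (called) and -0.05 with si033 (not called), and *DZIP1* of 0.44 and 0.18 (both called). The next gene on the side of *GPR180*, *TGDS*, was called with neither siRNA (0.17 and 0.12), and the next on the side of *DZIP1*, *DNAJC3*, had log2 fold changes of 0.04 (not called) and -0.27 (called).

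Next, the genes most like *ABCC3* over the 9 libraries were sought by the root mean square difference of log2 CPM after centring each gene. They were *CST2* (0.285), *CUX2* (0.295), *TMEM45A* (0.305), *UBASH3B* (0.313) and *ACRV1* (0.331). *CST2*, a secreted cystatin, stood at 1.37 CPM in control, 7.33 CPM with si025 and 2.08 CPM with si033, and *CUX2*, a homeobox factor, at 7.58, 29.1 and 10.2 CPM. All 5 had a smaller log2 fold change than *ABCC3* with si033, between 0.48 and 0.85. The genes most like *ABCC4* were *NUP133* (0.0156), *LRRC16A* (0.0258), *MARCH6* (0.0281), *CHD1* (0.0305) and *BAG5* (0.0306). *ABCC3* held 27 to 42 counts in the control libraries, and *ABCC4* held at least 1962 counts in every library. The size of these differences was therefore not compared between *ABCC3* and *ABCC4*. *NUP133*, a nuclear pore subunit, stood at 95.6, 75.0 and 80.1 CPM in control, si025 and si033. These likenesses are measured in the same libraries and with the same scaling.

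For the gene lists that follow, the shares of all tested genes called were 32.9% higher and 28.8% lower with si025. They were 26.9% higher and 27.8% lower with si033, and 31.2% higher and 29.7% lower with si025 against si033. No list was tested against these shares. Factors known to regulate ABCC genes in other settings were counted in a list of 23, of which 17 were tested. Called rises and falls numbered 4 and 6 with si025, and 6 and 4 with si033. *MYC* fell with both siRNAs, by 0.78 and 0.52. *NFE2L2*, which encodes the antioxidant response factor NRF2, stood at 54.2 ± 2.83 CPM in control and fell under si025 to 42.3 ± 2.05 CPM and under si033 to 49.8 ± 0.784 CPM (log2 fold changes -0.36 and -0.14, adjusted *p* = 7.73e-06 and 0.0458). *FOXA1*, a pioneer factor of prostate epithelium, rose with si025 by 0.23 and fell with si033 by 0.32. *PPARA*, a fatty acid receptor, rose with si025 from 21.6 to 38.0 CPM and was at 19.4 CPM with si033. *NR1H4*, the bile acid receptor, rose with both siRNAs, by 0.49 and 0.98, at 3.13 CPM in control. *PPARG* rose with si033 by 2.14 from 0.335 CPM. The pregnane X receptor gene *NR1I2* lay under 0.4 CPM in every group and was not tested.

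Among 20 tested NRF2 targets, with which *ABCC3* is often grouped, called rises and falls numbered 1 and 9 with si025 (median log2 fold change -0.16), and 4 and 9 with si033 (median -0.14). The cystine carrier *SLC7A11* fell with si025 from 27.0 ± 1.23 to 13.2 ± 2.04 CPM and *PIR* fell with both siRNAs, by 0.66 and 0.46. *AKR1C1* rose with si033 by 1.19, to 10.1 CPM, and *AKR1C2* by 0.77, and reads of these near-identical genes may be split uncertainly.

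Genes that make the conjugates carried by ABCC transporters were called in both directions. Of 22 tested glutathione genes 11 rose and 4 fell under si025 (median 0.18), and 5 rose and 7 fell under si033 (median -0.06). Glutathione reductase, *GSR*, rose with si025 from 37.1 ± 1.14 to 71.2 ± 3.54 CPM and fell with si033 to 30.8 ± 1.37 CPM. The glutathione hydrolase *GGT1* went from 12.3 ± 0.792 CPM up to 30.9 ± 1.05 CPM and down to 6.94 ± 0.828 CPM in the same way, and *GGT7* rose with both. *GSTM4*, one of several similar transferases, rose with si025 by 0.86. *GSTT2B*, among the 22 tested, was called with neither siRNA, and 99.1% of its exon words lie on an alternate contig.

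In glucuronidation and sulfation, of 18 tested genes, 7 rose and 7 fell with si025, and 4 rose and 9 fell with si033. *PAPSS2*, which makes the sulfate donor, rose with si025 from 24.4 ± 1.55 to 48.3 ± 2.49 CPM and fell with si033 to 4.39 ± 0.346 CPM, a direct log2 difference of 3.43 (adjusted *p* = 2.11e-19, edgeR). *UGT2B11*, a glucuronosyltransferase with close paralogs, fell from 12.9 CPM to 5.09 and 10.1 CPM, and *SULT2B1* rose from 0.237 CPM to 1.04 and 0.647 CPM. *UGT2B10* was called lower with both siRNAs and *UGT2B15* with si025, and these calls are in the counts above. However, 100% and 96.2% of their exon words lie on an alternate contig, so their counts are not read as levels. Among 15 tested uptake carriers 6 rose and 5 fell with si025, and 4 rose and 5 fell with si033. The organic cation carrier *SLC22A3* rose with si025 by 1.05 (0.14 with si033, not called), *SLCO5A1* rose with both siRNAs by 0.73 and 0.59, *SLC10A4* rose with si025 by 0.71, and *SLC10A3* fell with si025 by 0.69.

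Genes of cyclic nucleotide turnover, which set the supply of a substrate of *ABCC4* and *ABCC5*, were also counted. Of 23 tested, 13 rose and 1 fell with si025 (median 0.26), and 10 rose and 5 fell with si033 (median 0.23). The adenylyl cyclases *ADCY5* and *ADCY2* rose with both siRNAs, *ADCY5* from 1.13 CPM to 5.56 and 2.17 CPM and *ADCY2* from 3.47 CPM to 11.7 and 5.75 CPM. The phosphodiesterase *PDE8B* rose with si025 by 1.32 and fell with si033 by 0.85, and *PDE1B* rose with si025 by 1.44.

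Of 14 tested eicosanoid genes 7 rose and 5 fell under si025, and 5 rose and 5 fell under si033. *PTGS1*, a cyclooxygenase, rose with si025 from 2.93 to 13.9 CPM and fell with si033 to 1.89 CPM, *PTGES* rose with both siRNAs by 0.69 and 0.34, and the prostaglandin receptor *PTGER2* fell with both, by 0.24 and 0.67. *PTGER3* rose from 0.153 CPM to 0.482 and 1.23 CPM. Of 13 tested genes of extracellular ATP and pyrophosphate, the products tied to *ABCC6*, 6 rose and 3 fell with si025, and 5 rose and 5 fell with si033. *ENPP1* rose with si025 by 0.73 and fell with si033 by 0.34, *ENTPD2* rose with both, *ALPL* rose with si025 by 0.99, and *ENPP3* fell with si033 from 5.96 to 1.76 CPM.

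Scaffold and trafficking proteins that hold ABCC transporters at the membrane were also counted. Of 10 tested, 7 rose and 1 fell with si025 (median 0.20), and 3 rose and 6 fell with si033 (median -0.23). In the direct comparison si025 was above si033 in 6 and below it in 2, beside 31.2% and 29.7% of all tested genes. *EZR*, which encodes ezrin, stood at 285 ± 6.49 CPM in control, 314 ± 8.88 CPM in si025 and 194 ± 6.29 CPM in si033, and *SLC9A3R2* rose with si025 by 0.77 and fell with si033 by 0.27. *MYO5B* and *MPP1* rose with both siRNAs, by 0.52 and 0.67 and by 0.46 and 0.58. The VCaP prostate markers were also tested one by one. Of the 9, 8 were called higher with si025, 3 higher and 4 lower with si033, and 8 higher and 1 lower in the direct comparison. *KLK2* stood at 1938 CPM in control, 3502 CPM with si025 and 1621 CPM with si033. *KLK3*, a close paralog of *KLK2*, rose with both siRNAs, by 1.51 and 0.51, and *KRT18* rose with si025 by 0.15 and fell with si033 by 0.66. Among the other cell markers *ALB* stood at 217, 175 and 42.6 CPM, and *COL1A1* and *VWF* rose with si025 by 1.07 and 0.84 from under 2 CPM.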

How the data were processed

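The deposited values were unnormalized counts, in which each gene symbol has a whole number of read pairs in each library's file and which the authors made with HISAT2 2.1.0 and featureCounts 1.5.2 on hg38, per the file headers and the submitters' processing notes. The headers name a RefSeq annotation and strand-specific counting, whereas the methods of the study name GENCODE. Libraries were grouped by their titles. Counts were filtered with filterByExpr, scaled by TMM and tested with the quasi-likelihood test of edgeR 4.0.16 (R 4.3.3) in 1 fit with 3 group means over 9 libraries, with contrasts of each siRNA against control and of si025 against si033. *P* values were adjusted over 12810 genes. Gene positions, exon lengths and exon blocks came from the count files, and RPKM was the scaled CPM per kilobase of exon. The biological coefficient of variation was 4.13%. The chi-square per degree of freedom between replicates of a group was 1.69 to 5.09, so no library was taken as a copy of another.

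Exon words of 31 bases were matched on both strands against the primary chromosomes and 261 alternate contigs of hg38. The members and gene lists were chosen with earlier results of these data known. Named genes were all 7 members, the 4 genes of each list (8 for other ABC genes) with the largest absolute log2 fold change among those called and reaching 1 CPM, plus *FOXA1*, *NFE2L2* and *MYC*. Also named were the 5 genes most like *ABCC3* and *ABCC4*, and the 2 nearest tested genes on each side of these members. Of the neighbours of the other tested members only *DLK2* is described. Some listed genes are not reported here and were left out of the counts and sums. The remaining named genes were chosen after their values were seen. The fit was also run on simulated counts in which few genes changed, unlike in these data, and no result here rests on that run. Alternatives were other scalings, other filters, DESeq2 1.42.0, limma-voom 3.58.1, a replicate block and leaving out each library. The replicate numbers were checked for pairing.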

Additional observations from a re-analysis of the deposited data

Results flagged for a closer look

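The log2 difference of *ABCC10* between si025 and si033 was 0.27 (SE 0.09, adjusted *p* = 0.0110, edgeR), which drew attention because the direct test separated the effects of the siRNAs. The level was higher in 3 of 3 si025 libraries than the median si033 library, but the libraries of the groups overlapped, from 20.4 to 23.4 CPM and from 16.2 to 21.4 CPM.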

How the results depend on the processing

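Under 17 alternative settings *ABCC4* remained called lower with si025 (-0.36 to -0.32) and with si033 (-0.27 to -0.22), *ABCC5* remained called higher with si033 (0.14 to 0.22) and *ABCC10* with si025 (0.26 to 0.41), and no direction was reversed past the threshold. The count of members called was 2 to 3 with each siRNA against control, of 3 to 6 tested. Over all tested genes, 6777 to 8207 were called with si025 and 6151 to 7249 with si033. Between the siRNAs it was 1 of 4 members, beside 7801 of 12810 tested genes. It became 2 of 4 with RLE size factors, beside 7834 of 12810 genes, and 3 of 3 with only genes of at least 5 CPM, beside 6750 of 10474. When 1 library was left out it was 0 to 2 of 4, beside 7023 to 7804 genes called. There *ABCC5* was called with RLE (adjusted *p* = 0.0432), at 5 CPM or more (0.0339) and without si033 replicate 2 (0.0141), and *ABCC4* at 5 CPM or more (0.0325) and without si033 replicate 1 (0.0274), whereas *ABCC10* was lost without si033 replicate 2 or 3. The cause was not tested. *ABCC1*, at under 5 CPM, was lost with DESeq2 (adjusted *p* = 0.0711 with si025 and 0.126 with si033), and with si033 also by upper quartile scaling (0.0628). Its si025 call was lost without control replicate 2 or 3 and without si025 replicate 1 or 3 (0.0618 to 0.136), and its si033 call without any of these and without si033 replicate 2 or 3 (0.05001 to 0.210). For *ABCC3* the log2 difference from control was 2.55 to 2.99 and 0.71 to 1.15, lowest without control replicate 3.

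Same-numbered libraries of different groups correlated between -0.0281 and 0.0934 in their deviations from the group means, and libraries of different numbers between -0.144 and 0.137, so the numbers were not taken to pair the samples. With a replicate block 8000, 7094 and 7843 of 12810 genes were called, and among the members 1 call changed, that of *ABCC1* with si033 (adjusted *p* = 0.0545), leaving 2 members called there. The count without *ABCC1* was chosen after seeing the data. *ABCC2*, *ABCC6* and *ABCC1* rest on few counts.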
